A study of Rattus norvegicus with 12 samples.

Results

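The genes described here are 10 genes of blood vessels: the growth factor Vegfa and its receptors Kdr and Flt1, the growth factor Angpt1 and its receptor Tek, and the endothelial genes Pecam1, Cdh5, Nos3, Edn1 and Vwf. They were taken by name: every probe set (a group of probes on the array that reads 1 transcript) whose array annotation named 1 of these genes alone was included, which gave 13 of 31042 probe sets and 9 of the 10 genes. Cdh5 had no such probe set and is named only. The set was chosen by measured values of these arrays, the lower Vwf signal in diabetic rats seen beside the other endothelial genes, so the diabetes differences of the 10 genes at each age and over both ages are given as descriptions, without a test. Tests are given for age and for the change of the diabetes difference with age.

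Renal cortex of male rat littermates was profiled on 12 arrays, 3 in each of 4 groups. Diabetic rats of 20 weeks had been injected with streptozocin, a toxin of insulin-producing beta cells, at 65 mg/kg intravenously when 14 weeks old, and nondiabetic rats of 20 weeks had been given vehicle at that age. Diabetic rats of 10 weeks had been given the same dose at 4 weeks of age, before puberty, and nondiabetic rats of 10 weeks had been given vehicle. Pellets followed after 3 days, with insulin palmitate in diabetic rats and palmitate vehicle in nondiabetic rats, and the protocol ran for 6 weeks with free access to food and water. Streptozocin, insulin pellets and diabetes went together, so their parts in a difference cannot be told apart. Per the labels, blood glucose of the diabetic animals lay between 350 and 450 mg/dl, and 1 diabetic array, replicate 1 of 10 weeks, carries a label with a vehicle pellet. Which animal gave which array is not labelled, and the p-values therefore reflect only how far these samples vary, part of which may be technical.

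All arrays had been scaled to 1 common mean signal, and correlations between arrays lay between 0.907 and 0.928. RNA integrity was read from the Gapdh and beta-actin control probe sets, whose 3' over 5' ratios go up with degradation. The Gapdh ratio was higher in 20-week than in 10-week rats by 0.20 on the log2 scale (two-sided exact permutation test over 6 and 6 arrays, p = 0.013), with its highest value, 2.09, in 20-week nondiabetic replicate 1. Its log2 difference between diabetic and nondiabetic rats was 0.019 (same exact test, p = 0.879). The beta-actin ratio was larger on every array, from 6.30 to 11.4. Its highest values were in 20-week diabetic replicate 2 (11.4) and 20-week nondiabetic replicate 1 (11.2). It was higher at 20 weeks by 0.36 on the log2 scale (same exact test, p = 0.0368). Between diabetic and nondiabetic rats it differed by 0.076 (same exact test, p = 0.69). The tissue check against other cell types gave bright proximal tubule markers, with all 8 listed past the limit on dim signals, and 27 of 30 further endothelial genes past it.

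Vegfa is secreted in the kidney mainly by podocytes and tubule cells and acts on the endothelium through Kdr, the receptor that carries most of the signal, while Flt1 binds the ligand tightly and acts largely as a decoy. Angpt1, from mural and other supporting cells, activates Tek and keeps vessels quiescent. Pecam1 and Cdh5 join endothelial cells to each other, Nos3 makes the vasodilator nitric oxide, Edn1 encodes the precursor of the vasoconstrictor endothelin-1, and Vwf encodes the large clotting protein that endothelial cells store in Weibel-Palade bodies and megakaryocytes pack into platelets.

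Of the 13 probe sets, 8 passed the limit on dim signals (a geometric mean over all arrays of 70.9) and were included in the fit. They covered Vegfa with 2 probe sets and Kdr, Flt1, Tek, Pecam1, Edn1 and Vwf with 1 each. Edn1 lay just inside the limit with a geometric mean of 89.4 and a second Flt1 probe set just outside it at 66.0. The others below the limit were Nos3 (51.5), another Flt1 probe set (46.8), a second Kdr probe set (23.9) and Angpt1 (11.3). Their values are given with the gene they belong to.

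Vwf read lower in diabetic than in nondiabetic cortex at both ages. At 20 weeks its signals were 176, 190 and 125 on the arrays of diabetic rats, against 654, 1329 and 304 on those of nondiabetic rats. Each diabetic array lay below each nondiabetic array of that age. At 10 weeks the signals were 494, 181 and 207 in diabetic rats, against 1181, 742 and 562 in nondiabetic rats, again without overlap within the age. The highest diabetic value, 494, came from the array whose label names a vehicle pellet, and it lay above the lowest nondiabetic value of 20 weeks, so across ages the arrays overlapped. Group means were 164 ± 34.2 in 20-week diabetic and 762.1 ± 521 in 20-week nondiabetic rats, and 294 ± 173 in 10-week diabetic and 828 ± 318 in 10-week nondiabetic rats (SD, n = 3 each). In the order of means the nondiabetic groups stood above the diabetic ones, and the 2 nondiabetic groups, like the 2 diabetic groups, lay within their spread of each other.

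**Figure D1:**
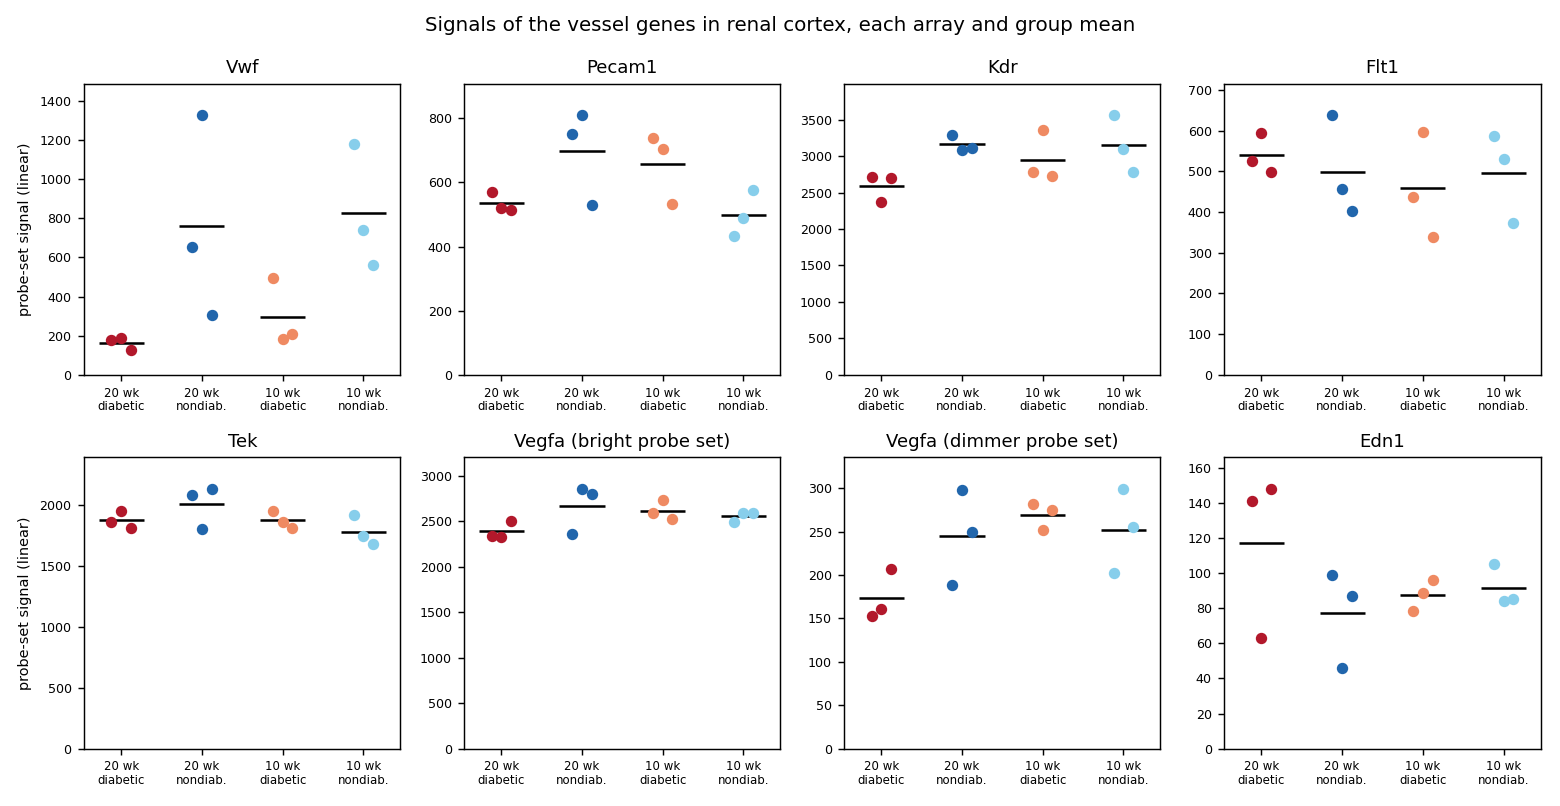
Probe-set signal (linear scale, arbitrary units) of the 8 probe sets past the limit on dim signals, for the 4 groups; points are arrays and bars are group means of 3 arrays. Vwf points of diabetic rats lie between 125 and 494 and those of nondiabetic rats between 304 and 1329, while the groups of the other genes lie closer together.

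On the log2 scale the diabetes difference of Vwf was -1.99 ± 0.49 (SE) at 20 weeks and -1.58 ± 0.49 at 10 weeks, a 3.98-fold and a 2.98-fold lower signal in diabetic rats. Over both ages the difference was -1.78 ± 0.34. It ranked 8 from the lowest of 18625 probe sets tested. An extreme rank was to be had from the choice of the genes by this fall, so nothing is read from it. Without the diabetic array labelled with a vehicle pellet the 10-week difference was -2.03. Without both this array and 20-week nondiabetic replicate 1 the difference over both ages was -2.00. Without 20-week nondiabetic replicate 2, the brightest Vwf array, the 20-week difference was -1.47, and without replicate 3 of the same group it was -2.53. RNA from whole cortex cannot tell fewer cells of a type from less RNA per cell.

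Over all probe sets tested, limma called 2.84% for diabetes at 20 weeks, 0.306% at 10 weeks and 4.47% over both ages. No calls of the vessel genes themselves are given for these comparisons, because they entered the choice of the genes. Diabetic and nondiabetic arrays did not overlap for 2 of the 8 at 20 weeks (Vwf and Kdr), against 20.9% of all probe sets, and for Vwf alone at 10 weeks, against 17.0% of all, and nothing is read from these counts.

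**Figure D2:**
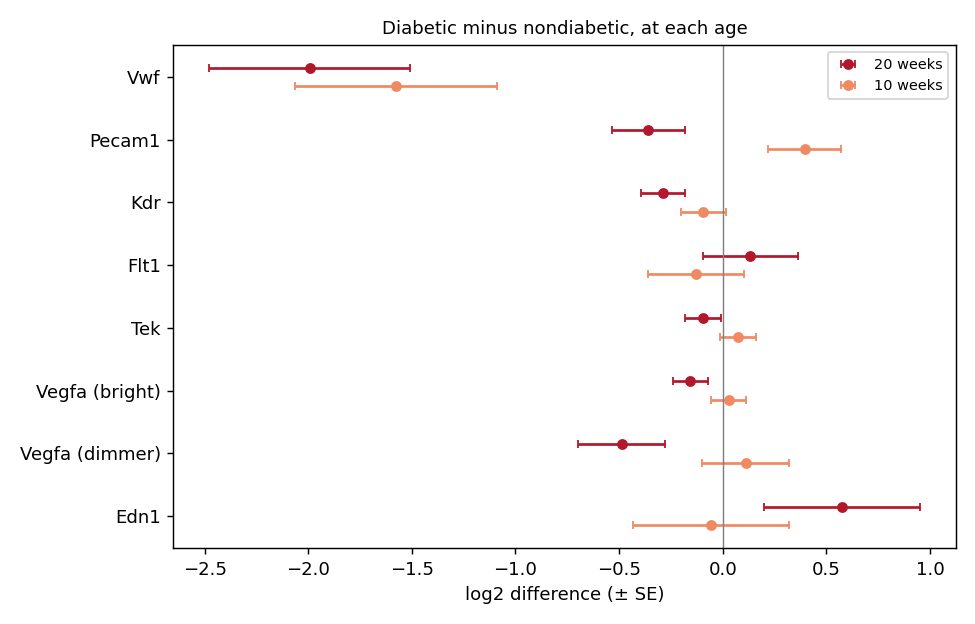
Log2 difference in signal, diabetic minus nondiabetic rats (horizontal axis; points with SE bars from the fit to all 12 arrays), at 20 and at 10 weeks for each probe set past the limit on dim signals. Vwf stands at -1.99 and -1.58, and every other difference lies between -0.49 and 0.58.

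Vwf was next set against the other endothelial genes of the same array, the contrast by which the genes were chosen, and read lower in diabetic rats. The mean log2 signal of Kdr, Flt1, Tek and Pecam1 was subtracted from the log2 signal of Vwf on each array, which also removes any common scaling of the array. This value was -2.65, -2.53 and -3.08 in 20-week diabetic rats, against -1.04, 0.15 and -1.85 in 20-week nondiabetic rats. At 10 weeks it was -1.22, -2.81 and -2.23 in diabetic rats, against 0.04, -0.55 and -0.83 in nondiabetic rats. Diabetic arrays lay below nondiabetic ones at each age. The difference was -1.84 ± 0.57 (SE) at 20 weeks, -1.64 ± 0.57 at 10 weeks and -1.74 ± 0.40 over both ages. The mean of the 4 other genes itself differed by -0.15 ± 0.11, 0.06 ± 0.11 and -0.04 ± 0.08 in the same 3 comparisons. The values relative to these genes therefore largely repeat the Vwf differences and are a description only.

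**Figure D3:**
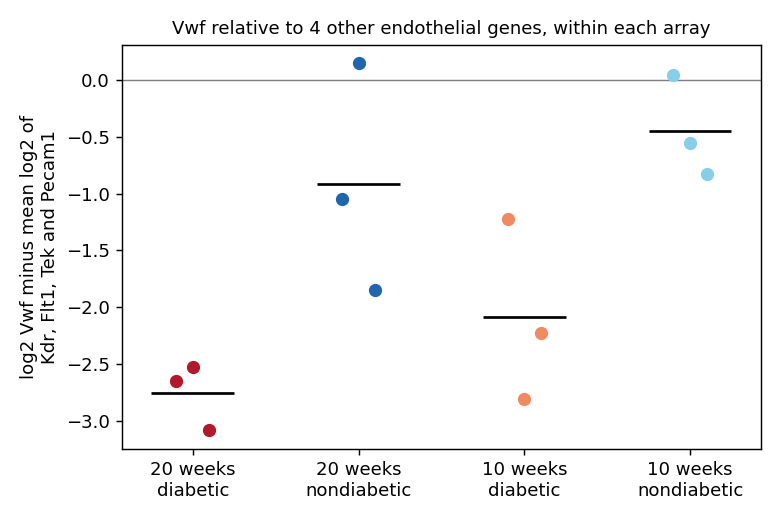
Log2 signal of Vwf minus the mean log2 signal of Kdr, Flt1, Tek and Pecam1 on the same array (vertical axis) in the 4 groups; points are arrays and bars are means of 3. Diabetic arrays lie between -3.08 and -1.22 and nondiabetic arrays between -1.85 and 0.15, and they do not overlap within an age.

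Pecam1, the adhesion molecule of endothelial junctions, went in opposite directions at the 2 ages. At 20 weeks its signals were 569, 519 and 515 in diabetic rats, against 752, 810 and 529 in nondiabetic rats. At 10 weeks they were 739, 703 and 531 in diabetic rats, against 432, 488 and 575 in nondiabetic rats. The groups overlapped by 1 array at each age. The diabetes difference was -0.36 ± 0.18 (SE) at 20 weeks and 0.40 ± 0.18 at 10 weeks. The difference between these, -0.76 (95% confidence interval -1.30 to -0.22), had an unadjusted p of 0.00989 and an adjusted p of 0.508 in limma's test over all probe sets, so it did not pass.

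Kdr was the only other probe set past the limit whose diabetic and nondiabetic arrays of 20 weeks did not overlap. Its signals were 2708, 2373 and 2703 in 20-week diabetic rats, against 3294, 3089 and 3115 in 20-week nondiabetic rats, a log2 difference of -0.29 ± 0.11 (SE). At 10 weeks they were 2779, 3358 and 2721 in diabetic rats, against 3565, 3103 and 2788 in nondiabetic rats, and the groups overlapped (difference -0.09 ± 0.11). The 20-week diabetic group had the lowest mean, 2595 ± 191, and the means of the other groups, from 2953 to 3166, lay within their spread of each other. The second Kdr probe set, far below the limit, read 2.66, 20.1 and 64.1 in 20-week diabetic rats against 50.8, 48.8 and 36.3 in nondiabetic rats, and 22.1, 70.4 and 47.6 in 10-week diabetic rats against 4.75, 6.77 and 48.0 in nondiabetic rats. Its arrays overlapped at both ages.

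The bright probe set of Flt1, the decoy-like receptor, varied more between replicates than between groups. It read 525, 594 and 497 in 20-week diabetic rats, against 639, 456 and 403 in 20-week nondiabetic rats. At 10 weeks it read 437, 597 and 340 in diabetic rats, against 587, 530 and 372 in nondiabetic rats. The diabetes difference was 0.13 ± 0.23 (SE) at 20 weeks and -0.13 ± 0.23 at 10 weeks, and the groups overlapped at both ages. The second Flt1 probe set, below the limit, read 55.6, 39.4 and 55.5 in 20-week diabetic rats against 54.9, 70.2 and 82.4 in nondiabetic rats. At 10 weeks that probe set read 49.0, 56.3 and 77.6 in diabetic rats against 99.1, 85.7 and 97.3 in nondiabetic rats, without overlap. Its diabetes difference was -0.46 ± 0.37 (SE) at 20 weeks and -0.65 ± 0.37 at 10 weeks. The direction thus differed from that of the bright probe set at 20 weeks and was the same at 10 weeks. The dimmest Flt1 probe set read 50.9, 34.5 and 27.5 in 20-week diabetic rats against 42.1, 73.2 and 70.5 in nondiabetic rats, and 72.7, 39.1 and 33.3 in 10-week diabetic rats against 42.5, 85.8 and 30.7 in nondiabetic rats, with overlap at both ages.

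The promoters of the Vegf receptors are shown because these are the receptor genes through which the ligand acts and both have an entry among the 300-base promoter windows of RefSeq (250 bases before to 50 after the start, build GRCr8). The table held entries for 5 of the 10 genes, namely Vegfa, Kdr, Flt1, Nos3 and Edn1. Capitals mark GGAA, the core of sites bound by ETS factors, which drive many endothelial genes, and TTCC, the same motif on the other strand. No other motif was searched. The Kdr window, on the plus strand at chr14:32571813-32572112, held 5 matches, and 29.2% of 33469 windows held at least as many. The Flt1 window, on the plus strand at chr12:12333180-12333479, held 3, and 67.0% of windows held at least as many. Of all windows 95.8% held at least 1, so a match here is a description of the letters and no more.
Kdr: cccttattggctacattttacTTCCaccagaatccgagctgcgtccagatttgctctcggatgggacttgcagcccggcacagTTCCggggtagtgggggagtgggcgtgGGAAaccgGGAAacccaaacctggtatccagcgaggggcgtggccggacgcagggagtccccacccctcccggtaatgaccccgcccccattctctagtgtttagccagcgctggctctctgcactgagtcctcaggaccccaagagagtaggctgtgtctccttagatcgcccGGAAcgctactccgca
Flt1: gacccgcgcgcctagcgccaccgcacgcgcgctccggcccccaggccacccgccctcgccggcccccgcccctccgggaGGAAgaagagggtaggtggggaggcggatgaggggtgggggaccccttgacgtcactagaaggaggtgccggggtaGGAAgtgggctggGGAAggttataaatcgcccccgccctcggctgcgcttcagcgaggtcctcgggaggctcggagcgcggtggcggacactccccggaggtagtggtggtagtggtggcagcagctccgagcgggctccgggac

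Tek, the angiopoietin receptor, showed small differences between groups. Its signals were 1865, 1953 and 1816 in 20-week diabetic rats, against 2089, 1809 and 2138 in 20-week nondiabetic rats. At 10 weeks they were 1955, 1860 and 1814 in diabetic rats, against 1917, 1747 and 1681 in nondiabetic rats. The diabetes differences, -0.10 ± 0.09 (SE) at 20 weeks and 0.08 ± 0.09 at 10 weeks, were close to their errors, and the groups overlapped at both ages.

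The 2 probe sets of Vegfa disagreed in size. The bright one read 2340, 2331 and 2501 in 20-week diabetic rats, against 2356, 2861 and 2806 in 20-week nondiabetic rats, and at 10 weeks 2593, 2735 and 2523 in diabetic rats, against 2494, 2593 and 2597 in nondiabetic rats. Its diabetes difference was -0.16 ± 0.08 (SE) at 20 weeks and 0.03 ± 0.08 at 10 weeks, and the 10-week value was 0.14 with arrays centred on their medians. The dimmer one read 153, 161 and 206 in 20-week diabetic rats, against 188, 298 and 249 in 20-week nondiabetic rats, and at 10 weeks 282, 251 and 275 in diabetic rats, against 202, 300 and 256 in nondiabetic rats. Its difference was -0.49 ± 0.21 at 20 weeks and 0.11 ± 0.21 at 10 weeks. Both probe sets were lowest in 20-week diabetic rats, and both overlapped with the nondiabetic arrays of that age.

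Edn1 was dim in all groups. It read 141, 62.7 and 148 in 20-week diabetic rats, against 99.1, 45.8 and 87.1 in 20-week nondiabetic rats, and at 10 weeks 78.1, 88.9 and 96.2 in diabetic rats, against 105, 84.1 and 84.9 in nondiabetic rats. Its diabetes differences of 0.58 ± 0.38 (SE) and -0.06 ± 0.38 had wide errors, and the groups overlapped. Nos3, below the limit, read between 33.4 and 58.1 in 20-week diabetic and between 56.7 and 65.8 in 20-week nondiabetic rats. At 10 weeks Nos3 read between 35.5 and 52.6 in diabetic and between 38.7 and 83.6 in nondiabetic rats. Angpt1 read between 4.38 and 30.1 in 20-week diabetic and between 15.2 and 20.8 in 20-week nondiabetic rats, and between 1.56 and 43.8 in 10-week diabetic and between 6.67 and 10.6 in 10-week nondiabetic rats. Signals this low lie near background, and no fold is given for these genes.

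Age was the comparison that did not enter the choice of the genes, and it asks how the vessel genes differ between 20 and 10 weeks. In nondiabetic rats limma called 0 of 8 probe sets (1 at an unadjusted p under 0.05), and it called 0% of all 18625 (8.61% at an unadjusted p under 0.05). Pecam1 was the 1, at 752, 810 and 529 in 20-week nondiabetic rats against 432, 488 and 575 in 10-week nondiabetic rats, a log2 difference of 0.47 (95% confidence interval 0.09 to 0.85, adjusted p = 0.542). For Kdr, Tek and the bright Vegfa probe set the interval of the age difference in nondiabetic rats reached at most 0.36 on either side of 0. That of Vwf ran from -1.35 to 0.75 around a difference of -0.30 (adjusted p = 0.88). No nondiabetic groups of the 8 probe sets were free of overlap between ages, against 12.1% of all probe sets.

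In diabetic rats limma also called 0 of 8 for age (1 at an unadjusted p under 0.05, against 13.6% of all), against 0.660% of all called. The dimmer Vegfa probe set was the 1, with 153, 161 and 206 in 20-week diabetic rats against 282, 251 and 275 in 10-week diabetic rats. These arrays did not overlap, and the log2 difference was -0.65 (95% confidence interval -1.10 to -0.20, adjusted p = 0.2). The bright Vegfa probe set differed by -0.13 (interval -0.31 to 0.05) and Kdr by -0.18 (interval -0.41 to 0.05), also without overlap between the ages. That made 3 of 8 without overlap in diabetic rats, against 21.5% of all probe sets. Vwf differed by -0.72 (interval -1.77 to 0.34, adjusted p = 0.555). The Gapdh 3'/5' ratio was also higher at 20 weeks, and its part in the age differences was not tested by these comparisons. With the ratio as a covariate in the fit, a setting chosen after seeing the data, the age difference of Vwf was -0.54 in diabetic and -0.11 in nondiabetic rats.

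**Figure D4:**
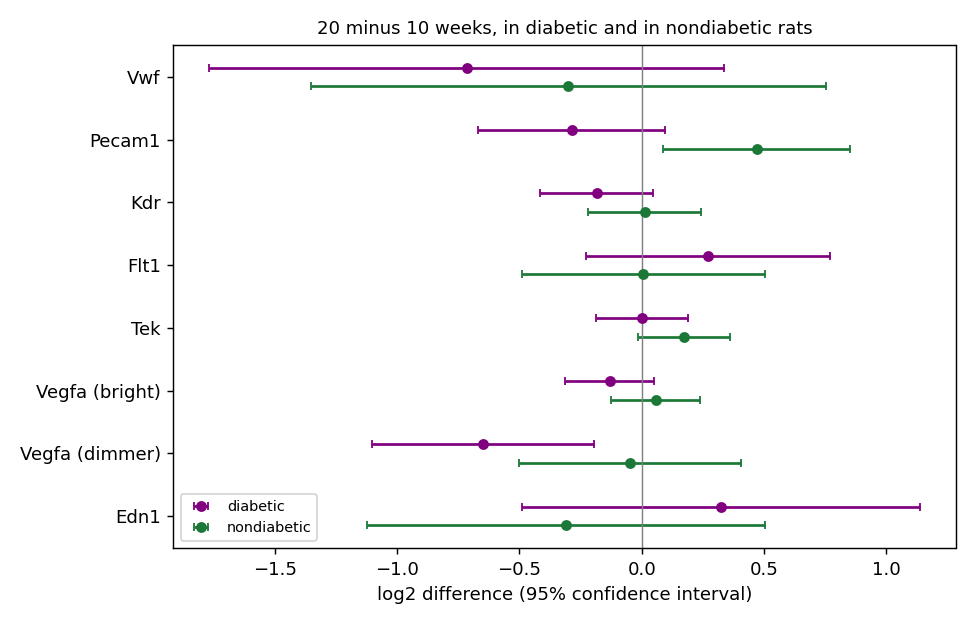
Log2 difference in signal, 20 minus 10 weeks, in diabetic and in nondiabetic rats (horizontal axis; bars are 95% confidence intervals from the fit to all 12 arrays) for each probe set past the limit on dim signals. Only the intervals of Pecam1 in nondiabetic rats and of the dimmer Vegfa probe set in diabetic rats exclude 0, and neither passed adjustment over all probe sets.

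Whether the diabetes difference itself depended on age was tested as the 20-week minus the 10-week difference. Here limma called 0 of 8 (1 at an unadjusted p under 0.05, Pecam1) and 0% of all probe sets, of which 7.95% had an unadjusted p under 0.05. For Vwf the estimate was -0.42 (95% confidence interval -1.90 to 1.07, adjusted p = 0.903), so neither a larger nor a smaller difference at 20 weeks could be told apart from none at this number of arrays. For the dimmer Vegfa probe set it was -0.60 (interval -1.24 to 0.04, adjusted p = 0.644), and for Tek -0.17 (interval -0.44 to 0.09, adjusted p = 0.744).

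Across the 12 arrays, which share the group differences, no other member followed Vwf closely. Its highest correlation was with Kdr (Pearson r = 0.57), and after group means were removed that was 0.00. With group means removed, Vwf had r = 0.48 with Pecam1 and -0.47 with Edn1. Within groups the receptors Kdr and Flt1 varied together the most (r = 0.70 over 12 arrays, and 0.31 before group means were removed). Of 10483 other genes the 6 with the highest correlation with Vwf were Nav2 (r = 0.93), Pllp (0.92), Ankrd46 (0.92), Myo7a (0.92), Slc39a10 (0.91) and Pzp (0.91). Slc39a10 encodes a zinc importer, Myo7a an unconventional myosin and Pllp a membrane protein also known as plasmolipin. Their correlations after removal of group means were between 0.72 and 0.90. The 3 most opposed were Cenpv (-0.94), Dhtkd1 (-0.94) and Rpl37a (-0.93). None of these 9 was on the lists of vessel genes. The correlations are descriptions over few arrays, chosen as the extremes of many genes.

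Further genes of the same pathways came from lists compiled from general knowledge, but with earlier results of these data known. Their diabetes difference over both ages is tested with all probe sets, of which 4.47% were called and 17.9% had an unadjusted p under 0.05. The p-values of listed genes are therefore not those of lists fixed before the data were seen. Of 5 other Vegf ligands and receptors past the limit (Vegfb, Vegfc, Vegfd, Nrp1 and Nrp2) limma called 0, with 0 at an unadjusted p under 0.05, and their differences lay between -0.10 and 0.06. Of 3 further angiopoietin and Tie genes 1 rose, Angpt2, which is stored with Vwf in Weibel-Palade bodies and mostly opposes Angpt1 at Tek. Angpt2 read 265, 251 and 285 in 20-week diabetic rats, against 119, 191 and 168 in 20-week nondiabetic rats. At 10 weeks Angpt2 read 191, 266 and 230 in diabetic rats, against 125, 214 and 144 in nondiabetic rats, where the groups overlapped. Its log2 difference over both ages was 0.65 ± 0.17 (SE, limma adjusted p = 0.046). This call was lost in 13 of 20 alternatives, among them 10 of the 12 that left out a single array. Over the single-array fits the adjusted p lay between 0.0249 and 0.114, and only leaving out replicate 2 of either nondiabetic group kept it under the threshold.

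Of 27 other endothelial genes past the limit 1 rose and 0 fell, with a median of 0.04 against -0.01 over all probe sets. At an unadjusted p under 0.05 there were 9 of 27 (33.3%, against 17.9% of all), with Esam, Plvap, Icam1, Cav1, S1pr1 and Lyve1 higher and Emcn, Vcam1 and Gja4 lower in diabetic rats. Dimmer probe sets of Cav1 (-0.08 ± 0.16, SE) and Lyve1 (0.02 ± 0.23) past the limit did not show the rise. The 1 called was Icam1, an adhesion molecule for leukocytes, at 617, 719 and 754 in 20-week diabetic rats against 595, 516 and 529 in 20-week nondiabetic rats, and at 555, 490 and 560 in 10-week diabetic rats against 442, 405 and 398 in 10-week nondiabetic rats. At each age the diabetic arrays lay above the nondiabetic ones, and the log2 difference was 0.36 ± 0.08 (SE, limma adjusted p = 0.0299). Without single arrays the adjusted p of Icam1 lay between 0.0254 and 0.0757, and it was over the threshold without replicates 1 or 3 of 10-week diabetic, 2 or 3 of 10-week nondiabetic, 2 or 3 of 20-week diabetic, or 2 or 3 of 20-week nondiabetic rats. The lowest of the 27 was Gja4, a gap junction protein of arterial endothelium, at -0.30 ± 0.13, and the highest Stab1, a scavenger receptor of sinusoidal endothelium, at 0.80 ± 0.37; neither passed. The Vwf difference of -1.78 lay below the whole range of these genes. That place was to be had from the choice of the genes by the fall of Vwf, so nothing is read from it.

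Of 8 Notch and ephrin genes of vessels, 9 haemostasis and Weibel-Palade body genes and 6 endothelin and nitric oxide genes limma called 0 over both ages. Of all probe sets 4.47% were called. At an unadjusted p under 0.05 there were 0 of the 8, 2 of the 9 (22.2%, Thbd and Rab27a) and 1 of the 6 (16.7%, Arg2). The share of all probe sets was 17.9%, so nothing is read from these counts, and the 3 genes are given as values. Thbd, or thrombomodulin, the endothelial receptor that turns thrombin to an anticoagulant role, came closest, at -0.42 ± 0.11 (SE, limma adjusted p = 0.0562). Its signals were 386, 424 and 346 in 20-week diabetic rats, against 650, 499 and 582 in 20-week nondiabetic rats, with no overlap, while at 10 weeks the groups overlapped. A dimmer Thbd probe set past the limit overlapped at both ages. Rab27a, a GTPase that guides Weibel-Palade bodies, was at 0.57 ± 0.19 (adjusted p = 0.132). Arg2, an arginase that draws on the substrate of nitric oxide synthase, had the largest value, 1.25 ± 0.40, with an adjusted p of 0.103.

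**Figure D5:**
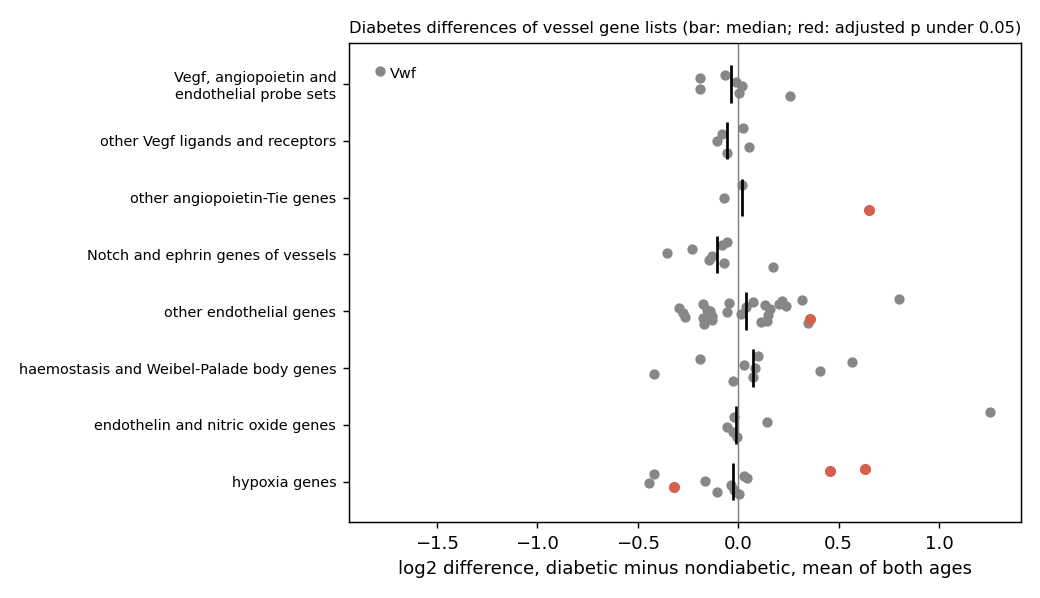
Log2 difference, diabetic minus nondiabetic rats, as the mean of both ages (horizontal axis), for the 8 probe sets of the genes described and for the members of 7 vessel gene lists past the limit on dim signals; each point is 1 probe set, the bar is the median and red points had a limma adjusted p under 0.05 (no test is shown for the top line). Vwf at -1.78 lies left of every other point, a place to be had from the choice of the genes by its fall. The list medians lie between -0.10 and 0.07.

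Of 12 hypoxia genes, which include regulators of Vegfa, 2 rose and 1 fell over both ages. The median difference of the 12 was -0.03, with 7 below 0, so the list had no common direction. At an unadjusted p under 0.05 in limma there were 4, with 2 higher and 2 lower in diabetic rats. Egln3 had the lowest difference of the 12, -0.44, and was not called. Ankrd37, a target of hypoxia-inducible factor, read 759, 816 and 735 in 20-week diabetic rats against 410, 612 and 504 in 20-week nondiabetic rats, and 922, 1176 and 915 in 10-week diabetic rats against 664, 619 and 625 in 10-week nondiabetic rats. Its log2 difference was 0.63 ± 0.10 (SE, limma adjusted p = 0.00395), and the diabetic arrays lay above all nondiabetic ones. Ldha, the lactate dehydrogenase subunit, rose by 0.46 ± 0.07 (adjusted p = 0.00243), and both calls held in all 21 alternatives. Egln1, a prolyl hydroxylase that marks the factor for destruction, fell, with a log2 difference of -0.32 ± 0.08 (adjusted p = 0.0315). Without single arrays its adjusted p ran from 0.0129 to 0.0786, and it was under the threshold only without replicate 3 of either diabetic group or replicate 1 of 20-week nondiabetic rats. Vegfa itself differed by -0.06 ± 0.06 on its bright probe set over both ages.

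Markers of other cells that could carry these transcripts were read beside them. The summed signal of 7 platelet and megakaryocyte markers with a probe set (of 8 listed), cells that also hold Vwf transcripts, ranged from 903 to 1054 in 20-week diabetic and from 908 to 1122 in 20-week nondiabetic rats. At 10 weeks it ranged from 773 to 860 in diabetic and from 793 to 974 in nondiabetic rats. The ranges overlapped, and of these markers Ppbp, Gp9 and Gp5 were below the limit on dim signals. Of the 4 past it limma called 0, with 0 also at an unadjusted p under 0.05. The sum of 10 smooth muscle and pericyte markers ranged from 2861 to 3822 in 20-week diabetic and from 2616 to 3272 in 20-week nondiabetic rats, and from 2467 to 2747 in 10-week diabetic and from 2252 to 2765 in 10-week nondiabetic rats, with 0 of 7 called by limma, 2 (Tagln and Smtn) at an unadjusted p under 0.05, and Cnn1, Cspg4 and Myocd below the limit. The 28 further endothelial genes with a probe set summed to between 16757 and 17376 in 20-week diabetic and between 15958 and 18119 in 20-week nondiabetic rats, and to between 16603 and 18231 in 10-week diabetic and between 16287 and 17775 in 10-week nondiabetic rats. These sums overlapped between diabetic and nondiabetic rats within each age. The part of cell numbers in the Vwf values was not tested.

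Podocytes are a source of Vegfa. Of 7 podocyte markers past the limit 2 fell over both ages (28.6%, against 4.47% of all probe sets), with a median of -0.28. At an unadjusted p under 0.05 there were 4, all lower (57.1%, against 17.9% of all). At 20 weeks 6 of the 7 were lower in diabetic rats without overlap, against 20.9% of all probe sets without overlap in either direction, and at 10 weeks 2 of the 7 did not overlap, against 17.0% of all. The mean log2 signal of the 7 was 9.29, 9.27 and 9.49 in 20-week diabetic rats against 9.70, 9.60 and 9.62 in 20-week nondiabetic rats, without overlap, and 9.22, 9.69 and 9.61 in 10-week diabetic rats against 9.54, 9.72 and 9.84 in 10-week nondiabetic rats, with overlap. Nphs1, or nephrin, of the slit diaphragm, read 330, 371 and 343 in 20-week diabetic rats against 507, 582 and 452 in 20-week nondiabetic rats, and 378, 483 and 504 in 10-week diabetic rats against 591, 634 and 570 in 10-week nondiabetic rats. The difference of Nphs1 was -0.48 ± 0.10 (SE, limma adjusted p = 0.0157), and it missed the threshold only when both doubted arrays (10-week diabetic replicate 1 and 20-week nondiabetic replicate 1) were left out together (-0.42, adjusted p = 0.0556). Ptpro, a podocyte phosphatase, had -0.40 ± 0.10 (adjusted p = 0.0339), with an adjusted p between 0.0294 and 0.0769 over the fits without a single array. It missed the threshold without replicate 1 of 10-week diabetic, 2 or 3 of 10-week nondiabetic, 1 or 2 of 20-week diabetic or 2 or 3 of 20-week nondiabetic rats. Cdkn1c, a bright marker also found in other cells, overlapped at 20 weeks, with 2199, 2062 and 3242 in diabetic against 2318, 1686 and 2357 in nondiabetic rats. The summed podocyte signal, in which Cdkn1c weighs heavily, ranged from 6675 to 8385 in 20-week diabetic and from 7615 to 8471 in 20-week nondiabetic rats, and from 6162 to 8893 in 10-week diabetic and from 7257 to 8976 in 10-week nondiabetic rats. Their part in the Vegfa values was not tested.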

How the data were processed

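Kidney cortex RNA of 12 samples was hybridised to 1-colour arrays. The deposited values are linear probe-set intensities and GCOS is the software named per the submitters' processing notes. Which version was run, and how probes were summarised, is not given in the sources used here. The mean after trimming 2% at each end was 500.2 on every array, so typical signals are equal by construction and differences are relative to the other transcripts.

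Of 31099 probe sets 57 controls were left out, values under 1 (424 values) were set to 1, log2 was taken, and the 40% with the lowest mean log2 signal were dropped, leaving 18625. Gene names came from the array annotation, updated through RefSeq identifiers (20832 probe sets named 1 gene, 436 several and 9831 none here).

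A model of 4 group means was fitted to all arrays with limma 3.58.1 in R 4.3.3 (8 residual degrees of freedom, eBayes with an intensity trend), two-sided, with Benjamini-Hochberg adjustment over all probe sets and a threshold of 0.05. The fit was tested on simulated data. Members and lists were chosen with earlier results of these data known. Of each list, the brightest probe set per gene was used, and called members were named. Alternatives were other scalings, filters, an offset of 16, no trend, 2 groups alone, a replicate block, arrays left out, and the Gapdh ratio as a covariate. Same-numbered samples of different groups did not vary together (correlations of deviations from -0.151 to 0.149, 18 pairs), so the numbers were not used to pair samples.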

Additional observations from a re-analysis of the deposited data

Results flagged for a closer look

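Vhl, which marks hypoxia-inducible factors for destruction, was singled out because its diabetic and nondiabetic arrays stood apart in opposite directions at the 2 ages. It read 1660, 1492 and 1607 in 20-week diabetic rats against 1805, 1916 and 1743 in 20-week nondiabetic rats, and 1829, 1764 and 1837 in 10-week diabetic rats against 1659, 1490 and 1723 in 10-week nondiabetic rats. The interaction, 20-week minus 10-week difference, was -0.36 on the log2 scale (limma adjusted p = 0.508, unadjusted p = 0.00904), so it did not pass. Vhl was picked by this same pattern, so its unadjusted p was bound to be small and is a description only. Groups of 3 arrays were too small to look for single outlying arrays.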

How the results depend on the processing

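The number of vessel gene probe sets called stayed at 0 for age in nondiabetic rats, age in diabetic rats and the interaction under every alternative run, the replicate block included (0 in each of these 3). The Vwf difference over both ages was -1.78 with the replicate block, between -2.00 and -1.71 under the other alternatives, and between -2.05 and -1.52 without single arrays; at 20 weeks it lay between -2.53 and -1.47 and at 10 weeks between -2.03 and -1.29 without single arrays. Vwf relative to the other endothelial genes lay between -1.99 and -1.66, and between -1.97 and -1.47 without single arrays. Counts over all probe sets moved far more. For diabetes at 10 weeks 57 were called, 5 to 115 without single arrays and 7 to 70 otherwise. At 20 weeks the count was 529, with 194 to 520 and 191 to 567, and over both ages 833, with 525 to 823 and 490 to 871. Age in diabetic rats gave 123, with 7 to 118 and 5 to 238, and age in nondiabetic rats 0, with 0 to 9 and 0 to 1. The interaction gave 0, with 0 to 2 and 0 to 3. The causes were not tested. Median centring of the arrays moved the 10-week diabetes differences upwards, to 0.19 for Tek (0.08 as reported), 0.14 for the bright Vegfa probe set (0.03 as reported), 0.02 for Kdr (-0.09 as reported) and 0.05 for Edn1 (-0.06 as reported), so the direction of the Kdr and Edn1 values at 10 weeks depends on the scaling. Precision is limited by 3 arrays per group, and no detection calls were used, so the sizes of dim differences are uncertain.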

Other observations

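Over the 6 lists of other cell types 4 of 34 markers past the limit on dim signals were called over both ages (11.8%, against 4.47% of all probe sets), namely Nphs1, Ptpro, Csf1r and Slc13a3. At an unadjusted p under 0.05 there were 14 of 34 (41.2%, against 17.9% of all), 7 higher and 7 lower in diabetic rats. Among the 5 leukocyte markers there were 4 at an unadjusted p under 0.05 (80.0%), all higher. Csf1r, the receptor of macrophage growth factor, was higher in diabetic rats by 0.36 ± 0.09 (SE, limma adjusted p = 0.0453), 1 of 5 leukocyte markers past the limit. That call was lost in 16 of 21 alternatives, among them 11 of the 12 without a single array (adjusted p from 0.0336 to 0.104, under the threshold only without 20-week diabetic replicate 3). Slc13a3, a dicarboxylate carrier of the proximal tubule, fell, with a log2 difference of -0.29 ± 0.06 (limma adjusted p = 0.0166), 1 of 8 proximal tubule markers, and lost its call in 2 of 21 alternatives.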
